A study of Homo sapiens with 16 samples.

Results

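The transcriptional response of K562 cells to the small molecule Ro was followed in 8 of the 16 libraries of the series, 4 from cells given DMSO and 4 from cells given Ro. K562 is an established, erythroid-leaning cell line from a chronic myeloid leukemia in blast crisis that carries the BCR-ABL fusion. The study describes Ro as a ligand of MSI2, an RNA-binding protein of the Musashi family, and the series asked which transcripts change soon after it is added to K562 or to MOLM13, an acute myeloid leukemia line. Ro was given at 20 µM for 4 h in the culture medium, RPMI with serum and antibiotics, at a final 0.1% of DMSO from the stock. The sample titles number the K562 libraries as pairs 1 to 4, with 1 DMSO and 1 Ro library each, and every change reported here is the Ro library against the DMSO library of the same pair. Genes were kept where at least 4 of the 8 libraries held 10 counts or more, which left 15227 of the 25221 genes in the deposited table. The labels do not say whether pairs were separate cultures, so p-values measure the spread between these samples, which may be technical.

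Cells respond to reactive, electrophilic compounds largely through NRF2 (the product of NFE2L2). KEAP1 holds NRF2 back by targeting it for degradation, and when KEAP1 is modified NRF2 accumulates, pairs with a small MAF protein such as MAFG and binds antioxidant response elements near genes for glutathione synthesis, thiol repair and NADPH supply. Damaged proteins call on a separate program, in which HSF1 raises chaperone genes. The erythroid identity of K562 rests on transcription factors such as GATA1, KLF1, GFI1B, NFE2 and MYB, and BCR-ABL signals through ERK and STAT5 to genes such as MYC, PIM1 and BCL2L1.

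Levels are given as CPM, the count of a gene scaled to the size of its library, and the kit reads only the 3′ end of each mRNA, so a count does not grow with transcript length. The library totals ranged from 3143129 to 43571060 counts with DMSO and from 13950949 to 25353764 with Ro, and the DMSO libraries of pairs 2 and 4 were the shallowest, with 3143129 and 4383241. A gene at 3 counts stood at 0.969 CPM in the shallowest library and at 0.0744 in the deepest, a limit that covers counting error only. Of 17 K562 markers, HBE1 was at 0 in every library while HBG2 (1140 to 2450 CPM) and GATA1 (41.1 to 86.9) were present throughout, with HBG2 counts uncertain because HBG1 is a close copy. The MOLM13 markers HOXA7, HOXA9 and HOXA10 were at 0 in all 8 libraries. A 0 need not mean absence: the proteasome genes PSMA2 and PSMA3, the splicing gene SRSF2 and CDK2 also averaged 0 CPM in both groups. The source of such zeros was not tested. The 17 MOLM13 and monocytic markers summed to between 185 and 274 CPM with DMSO and between 202 and 355 CPM with Ro, most of it CSF1R. The 12 T and B cell markers summed to between 18.4 and 32.5 CPM with DMSO and between 16.7 and 20.2 with Ro. The DMSO library of pair 4 stood apart in composition: the transcript LOC100507412 took 0.269% of its counts against 2.79% to 6.44% of the other 7 libraries. Values by pair are therefore given throughout.

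A small group of oxidative stress genes was higher in every pair after 4 h of Ro, and MYB, MYC and several erythroid regulators were lower in every pair, but differences of this size stood close to the spread between pairs. In edgeR's quasi-likelihood test with the pair as a block, 0 of 15227 genes (0.0%) passed an adjusted p of 0.05, and the smallest adjusted p (Benjamini-Hochberg) was 0.947. At an unadjusted p of 0.05, 129 genes (0.847%) were higher and 193 (1.27%) lower, 2.11% of all genes together, and these counts describe the ranking rather than a set of calls. In DESeq2 with the same block, GCLM and OSGIN1 passed, so 2 genes (0.0131%) were called higher and 0 lower, and an unadjusted p of 0.05 was met by 103 higher and 149 lower genes. limma-voom with a weight for each library called 0, its smallest adjusted p being 0.0964, and 575 genes above and 876 below 0 met an unadjusted p of 0.05. In all 4 pairs the same sign was found for 1076 genes that were higher (7.07%) and 692 that were lower (4.54%). Of these, 112 and 143 were also at an unadjusted p of 0.05. The count of lower genes at that threshold rose when pair 2 was left out: 756 were then lower, against 193 with all pairs and 78 to 183 when another pair was left out. The count of higher genes was 52 without pair 1, 63 without pair 3 and 200 without pair 4.

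**Figure D1:**
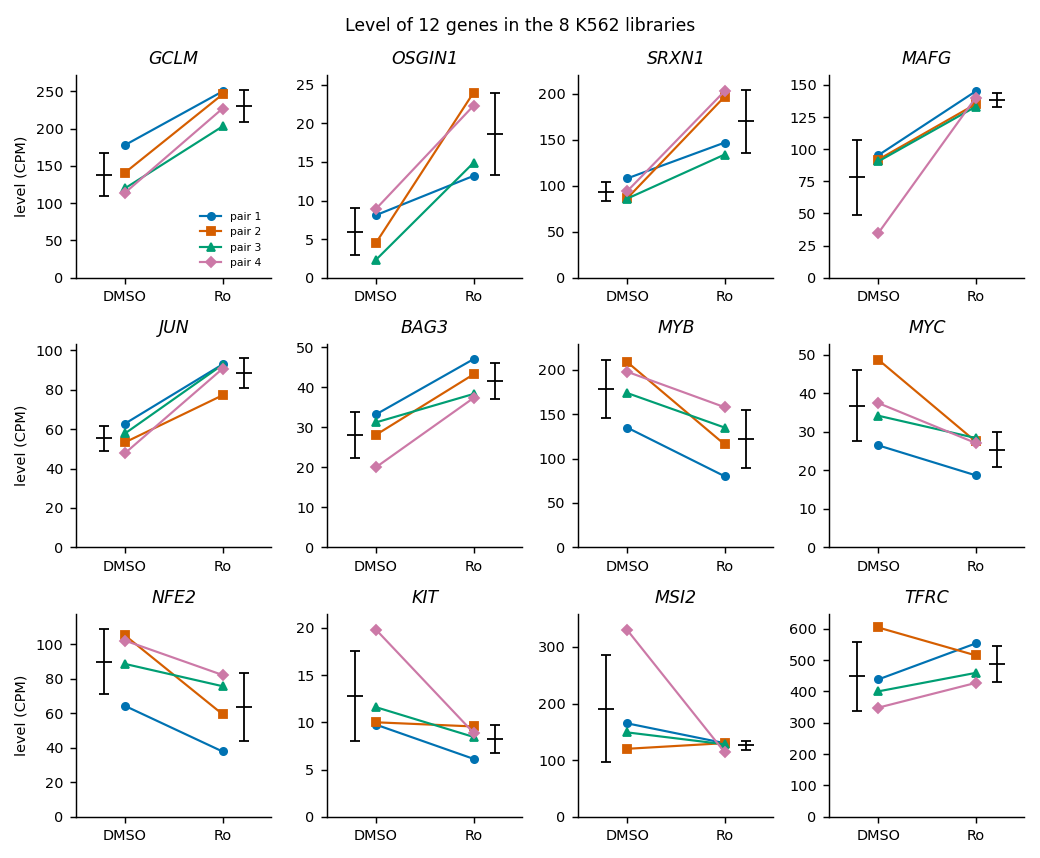
Level (CPM, y axes from 0) of 12 genes in the DMSO and Ro libraries of K562, with a line for each pair and, beside the points, the mean ± SD of the 4 libraries. GCLM, OSGIN1, SRXN1, MAFG, JUN and BAG3 were higher with Ro in all 4 pairs with no overlap of the groups. MYB, MYC, NFE2 and KIT were lower in all 4 pairs, and the mean of MSI2 with DMSO is set by pair 4. TFRC was higher in 3 pairs and lower in pair 2. All of the 12 but MSI2 and TFRC met a rule of small p and the same sign in all pairs. The share of all genes without overlap was not counted.

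Of the 4 genes with the smallest p, NRF2 targets made up 3, GCLM, OSGIN1 and SRXN1, and JUN was the other. GCLM (Entrez 2730, chr1:93885199-93909430 on the minus strand, RefSeq on GRCh38.p14) encodes the modifier subunit of glutamate-cysteine ligase, the rate-limiting enzyme of glutathione synthesis. It was at 178, 141, 120 and 114 CPM in the DMSO libraries of pairs 1 to 4 and at 250, 246, 203 and 227 CPM in the Ro libraries. Every Ro library was above every DMSO library, and GCLM rose by a log2 fold change of 0.76 (standard error 0.14; DESeq2 adjusted p = 0.0294, edgeR adjusted p = 0.947). OSGIN1 (chr16:83953240-83966332, plus strand), an oxidative stress-induced growth inhibitor, had 8.11, 4.53, 2.33 and 8.93 CPM with DMSO and 13.2, 24.0, 14.9 and 22.3 CPM with Ro. The groups again did not overlap, although the DMSO level varied among the pairs. How many of all genes lacked overlap was not counted, so here and below it only describes genes already chosen by p and sign. OSGIN1 rose by 1.70 (standard error 0.33, edgeR adjusted p = 0.947, DESeq2 adjusted p = 0.00898). Its pair differences spread from 0.70 in pair 1 to 2.62 in pair 3, while those of GCLM spread from 0.49 to 0.99.

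Sulfiredoxin, the product of SRXN1 (chr20:646615-653200, minus strand), restores over-oxidised peroxiredoxins. Its level was 108, 86.3, 86.0 and 94.0 CPM with DMSO and 147, 197, 134 and 203 CPM with Ro, so the groups did not overlap. The largest differences were in pairs 2 and 4 (log2 fold change 0.84, standard error 0.17, edgeR adjusted p = 0.947, DESeq2 adjusted p = 0.0785). ME1, the cytosolic malic enzyme that makes NADPH (chr6:83210402-83431051, minus strand), was at 36.0, 42.0, 36.5 and 24.2 CPM with DMSO and at 42.8, 55.9, 50.1 and 44.0 CPM with Ro, also without overlap (0.49, standard error 0.15). NQO1, a quinone reductase and a standard readout of NRF2, was at 72.2, 55.9, 47.7 and 85.5 CPM with DMSO and at 88.9, 78.0, 66.5 and 95.8 CPM with Ro. All 4 pairs had more NQO1 with Ro, but the differences were small (0.16 to 0.48 by pair, and 0.35 in the fit, standard error 0.13) and the groups overlapped. SLC7A11, the cystine importer, had 7.64, 8.73, 7.04 and 2.98 CPM with DMSO and 8.43, 16.8, 11.7 and 11.9 CPM with Ro, with pair differences from 0.14 in pair 1 to 1.97 in pair 4.

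The 3 lists of NRF2 targets (glutathione genes, thioredoxin and peroxiredoxin genes, and quinone, NADPH and other enzymes) held 50 genes of the table, of which 42 were tested. These lists, like every list below, were chosen with earlier results of these data known. Their shares are therefore descriptions and not independent support. Of the 42, 27 had a log2 fold change above 0, against 8153 of all 15227 genes. At an unadjusted p of 0.05, 8 (19.0%, against 0.847% of all genes) were higher and 0 lower, namely GCLM, OSGIN1, SRXN1, ME1, SLC7A11, NQO1, SESN2 and TXN. In all 4 pairs, 9 (21.4%, against 7.07%) were higher and 0 lower, with GSR and SQSTM1 beside all of those 8 but TXN. The median of the 42 was 0.12, against 0.02 over all genes tested, and was 0.22, 0.047, 0.15 and 0.11 in pairs 1 to 4. The fold changes of other standard targets were smaller, among them TXNRD1 (0.16), GCLC (0.17) and PGD (-0.02), and HMOX1, the heme oxygenase gene and a frequent NRF2 readout, was low at 1.82 CPM with DMSO and 1.70 with Ro. Genes at 0 in every library, such as AKR1C1, CBR1 and GPX2, were not tested, and a 0 need not mean absence here.

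The promoters of GCLM and ME1 are shown because, of the 7 NRF2 targets with an entry that were higher in all 4 pairs, they were the 2 whose window held the core of the antioxidant response element, TGACNNNGC on either strand. The sequences are the 250 bases before the RefSeq start (GRCh38.p14), 5′ to 3′ on the strand of the gene, with the element in capitals. GCLM lies at chr1:93909431-93909680 and ME1 at chr6:83431052-83431301, both on the minus strand.
GCLM: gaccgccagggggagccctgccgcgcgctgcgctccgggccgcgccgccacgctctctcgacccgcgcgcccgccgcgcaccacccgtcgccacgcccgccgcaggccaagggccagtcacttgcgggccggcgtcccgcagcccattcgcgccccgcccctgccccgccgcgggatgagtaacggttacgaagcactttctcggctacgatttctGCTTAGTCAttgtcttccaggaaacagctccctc
ME1: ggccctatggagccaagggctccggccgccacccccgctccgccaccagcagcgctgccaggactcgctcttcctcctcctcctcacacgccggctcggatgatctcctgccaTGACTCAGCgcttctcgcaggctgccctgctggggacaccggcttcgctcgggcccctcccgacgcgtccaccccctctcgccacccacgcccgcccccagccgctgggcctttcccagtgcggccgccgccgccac
With 50 bases after the start included, 7 of 33 NRF2 target promoters (21.2%) held the letters, against 1787 of 12151 promoters of all genes tested (14.7%). They were not in the windows of OSGIN1, SRXN1 and NQO1, which says only that these letters are not in those windows.

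Of 11 tested regulators of the pathway, MAFG, NFE2L1 and BACH1 were higher in all 4 pairs (27.3%, against 7.07% of all genes). NFE2 was lower in all 4 (9.09%, against 4.54%). At an unadjusted p of 0.05, MAFG was the 1 higher (9.09%, against 0.847%) and NFE2 the 1 lower (9.09%, against 1.27%). In a list of this size a share can rest on 1 gene. MAFG, a small MAF protein, was at 95.2, 91.8, 90.4 and 34.5 CPM with DMSO and at 145, 135, 133 and 140 CPM with Ro. The 4 Ro libraries lay close together and above every DMSO library, and the DMSO library of pair 4 was far below the other 3, so that the fold change of 0.91 (standard error 0.25) became 0.57 without pair 4. NFE2, the erythroid relative of NRF2 that also pairs with small MAF proteins, had 64.2, 105, 88.5 and 102 CPM with DMSO and 37.8, 59.4, 75.6 and 82.1 CPM with Ro. Each pair had less NFE2 with Ro, with log2 differences from -0.23 in pair 3 to -0.83 in pair 2, although the groups overlapped (log2 fold change -0.53, standard error 0.15). NFE2L2 itself differed little outside pair 4 (0.09, 0.33, -0.00091 and 1.46 in pairs 1 to 4), and KEAP1 was higher in pairs 1, 3 and 4 and lower in pair 2 (0.22 in the fit, standard error 0.15).

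JUN, an AP-1 subunit and an immediate early gene (chr1:58780791-58784047, minus strand), was higher by a similar amount in each pair. It had 62.8, 53.3, 57.8 and 47.8 CPM with DMSO and 92.9, 77.2, 92.7 and 90.7 CPM with Ro, with no overlap. The pair differences were 0.56, 0.53, 0.68 and 0.92 (0.68 in the fit, standard error 0.13, edgeR adjusted p = 0.947, DESeq2 adjusted p = 0.186). Of its AP-1 partners, JUNB had a log2 fold change of -0.23, JUND one of -0.03 and FOS, at 1.78 CPM with DMSO, one of -0.02. ATF3, a stress-induced repressor, was at 5.56, 6.79, 6.35 and 3.17 CPM with DMSO and at 7.07, 7.97, 8.77 and 8.22 CPM with Ro, which do not overlap. KLF6 was higher in each pair by 0.11 to 0.48. Of the 22 tested members of the immediate early list, these 3 were higher at an unadjusted p of 0.05 (13.6%, against 0.847% of all genes) and 0 were lower, and 6 were higher and 1, IER2, lower in all 4 pairs (27.3% against 7.07% of all genes, and 4.55% against 4.54%). The list median was 0.094.

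In the heat shock list, 18 of 21 tested genes had a fold change above 0, against 8153 of all 15227 genes. The list median was 0.22, which became 0.09 without pair 4. Pair 4 alone had a list median of 0.53, and pair 2 one of -0.02. BAG3, a co-chaperone of HSP70, was at 33.2, 28.1, 31.2 and 20.0 CPM with DMSO and at 47.0, 43.2, 38.3 and 37.3 CPM with Ro, so that every Ro library was higher (0.57, standard error 0.15). HSPA1B had 181, 86.0, 137 and 247 CPM with DMSO and 250, 184, 181 and 274 CPM with Ro. It was higher within each pair, but the groups overlapped, and its counts are uncertain because HSPA1A is a nearly identical copy. Only BAG3 and HSPA1B were at an unadjusted p of 0.05 (9.52%, against 0.847%), and the major chaperones HSP90AA1 (0.24) and HSPA8 (0.30) had their largest difference in pair 4, which for HSP90AA1 was 0.85. Other stress lists were counted in the same way. HERPUD1, which acts in degradation of proteins from the endoplasmic reticulum, was 1 of 19 tested unfolded protein genes higher at that threshold (5.26%, against 0.847% of all genes). SLC7A11, ATF3 and SESN2 were 3 of 22 tested ATF4 genes (13.6%), and 6 of the 22 were higher in all 4 pairs (27.3%, against 7.07%). Those 3 also belong to the NRF2 or immediate early lists and were counted there. The ATF4 list median was 0.08, and 13 of the 22 were above 0, against 8153 of all 15227 genes. Among the members below 0 were PHGDH (-0.31), PSAT1 (-0.19) and ASNS (-0.06).

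**Figure D2:**
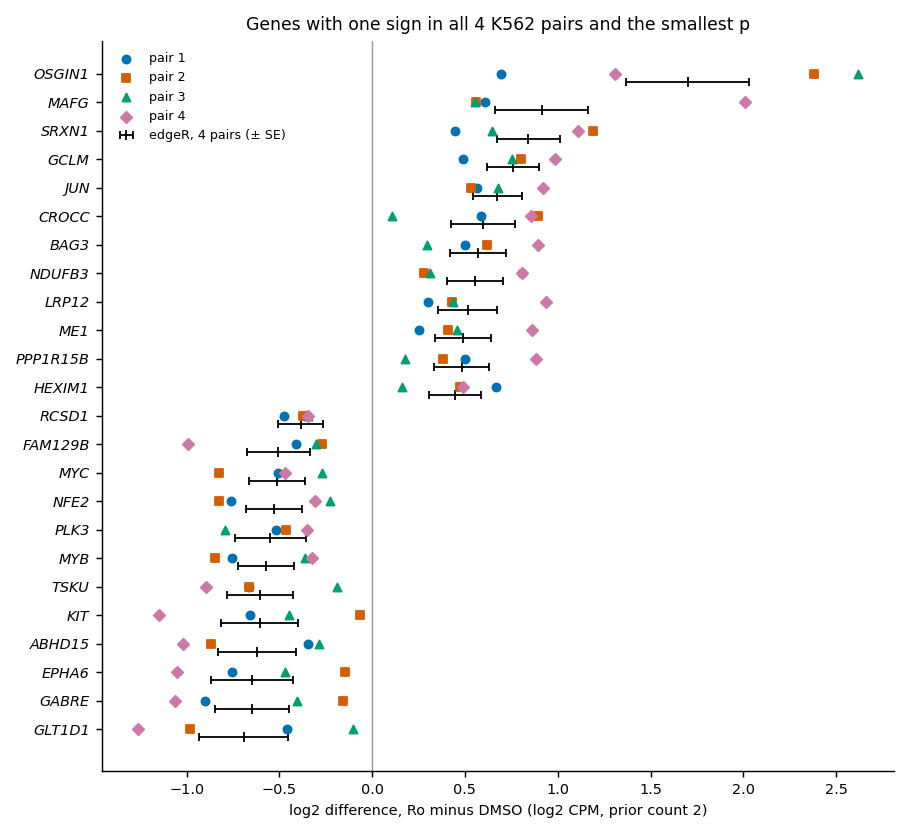
Log2 difference (Ro minus DMSO, x axis) in each K562 pair for the 12 genes in each direction with the smallest p among genes of at least 5 CPM with the same sign in all pairs, and the edgeR fold change with its standard error. The sign was part of the choice, so what the plot shows is the spread: JUN and RCSD1 are tight, and OSGIN1, MAFG and KIT are wide.

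Among genes of at least 5 CPM that were lower in all 4 pairs, MYB, MYC and NFE2 had the smallest p. MYB encodes a transcription factor needed for the growth of immature blood cells (chr6:135181308-135219172, plus strand), and its level was 135, 209, 174 and 198 CPM with DMSO and 80.1, 116, 135 and 158 CPM with Ro. Each pair had less MYB with Ro, with log2 differences of -0.76, -0.85, -0.36 and -0.33, while the level itself differed enough between pairs for the groups to overlap (log2 fold change -0.57, standard error 0.15). KIT, the stem cell factor receptor, was at 9.75, 10.0, 11.6 and 19.8 CPM with DMSO and at 6.13, 9.56, 8.45 and 8.89 CPM with Ro. Every Ro library was below every DMSO library, but pair 2 differed by -0.07 only. GFI1B, a repressor that acts in red cell and platelet development, had 26.2, 42.7, 50.4 and 34.1 CPM with DMSO and 15.6, 34.9, 38.4 and 29.8 CPM with Ro, lower in each pair, with differences from -0.19 to -0.75. KLF1, an activator of globin genes, was at 123, 114, 143 and 248 CPM with DMSO and at 105, 93.4, 117 and 154 CPM with Ro.

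The list of MYB and erythroid regulators had the lowest median of the lists with over 5 tested members. All of its 24 genes were tested, and 22 had a fold change below 0, while 8153 of all 15227 genes were above 0. At an unadjusted p of 0.05, 7 were lower (29.2%, against 1.27% of all genes) and 0 higher: MYB, NFE2, KIT, GFI1B, KLF1, ZFPM1 and LYL1. In all 4 pairs, 8 were lower (33.3%, against 4.54%), with GATA1 and LMO2 in place of ZFPM1. The list median was -0.25, against 0.02 over all genes, and lay between -0.22 and -0.35 when any one pair was left out. By pair it was -0.52, -0.056, -0.064 and -0.32, so the list as a whole was furthest from 0 in pairs 1 and 4. TAL1 (-0.0045) stood at 147 CPM in both groups. Whether fewer cells of a kind or less RNA per cell lay behind such a difference cannot be told apart in bulk RNA.

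Genes for the products of the erythroid program stood closer to 0. TFRC, the transferrin receptor, had 438, 604, 400 and 348 CPM with DMSO and 553, 515, 459 and 427 CPM with Ro, higher in 3 pairs and lower in pair 2 (log2 fold change 0.15, standard error 0.16). Of 22 tested globin and heme synthesis genes, ALAS1 was higher at an unadjusted p of 0.05 (0.40, standard error 0.16). That is 4.55% against 0.847% of all genes, 0 were lower, and the list median was -0.08. ALAS1 is not the red cell form of its enzyme, and ALAS2, which is, was at -0.15 (standard error 0.18). HBA1 was at -0.26 and HBA2 at -0.28, and 8 of the 22 were above 0, against 8153 of all 15227 genes. These 4 h values concern mRNA and not the surface protein.

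Of MSI2, MYC, TGFBR1, SMAD3 and CDKN1A, MYC was lower in all 4 pairs, as were 4.54% of all genes, and the others were not. MYC had 26.5, 48.8, 34.2 and 37.5 CPM with DMSO and 18.7, 27.5, 28.4 and 27.1 CPM with Ro, pair differences of -0.51, -0.82, -0.27 and -0.47. The DMSO library of pair 1 was as low as the Ro libraries of the other pairs, so the groups overlapped (log2 fold change -0.51, standard error 0.15; edgeR adjusted p = 0.947). MSI2, whose protein Ro is described to bind (chr17:57255851-57701581, plus strand), was at 165, 120, 149 and 330 CPM with DMSO and at 130, 130, 128 and 114 CPM with Ro. Its fold change of -0.49 (standard error 0.25) rested on the high DMSO library of pair 4 and was -0.16 without that pair. TGFBR1, a TGF-beta receptor, had 43.2, 35.2, 45.9 and 48.6 CPM with DMSO and 37.0, 38.8, 41.1 and 41.3 CPM with Ro (-0.13, standard error 0.14). SMAD3, a signal carrier below that receptor, was at 23.3, 42.3, 33.3 and 29.2 CPM with DMSO and at 18.1, 32.4, 33.3 and 30.8 CPM with Ro (-0.17, standard error 0.15), lower in pairs 1 and 2 and level in pairs 3 and 4. CDKN1A, which encodes the cell cycle inhibitor p21, was low, with 2.58, 5.50, 3.43 and 5.75 CPM with DMSO and 2.47, 7.46, 3.58 and 4.54 CPM with Ro (0.01, standard error 0.22).

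Members of the list of ERK and STAT5 output, through which BCR-ABL signals, were lower in part. Besides MYC, ID1 (166, 124, 122 and 224 CPM with DMSO; 165, 90.9, 89.9 and 105 with Ro) and the survival gene BCL2L1 (79.5, 105, 108 and 149 with DMSO; 62.2, 83.5, 97.9 and 95.5 with Ro) were below their DMSO library in every pair, ID1 at a difference of -0.0054 in pair 1. These 3 were the members of the ERK and STAT5 list at an unadjusted p of 0.05 (15.8% of 19 tested, against 1.27%), and SOCS3 (-0.42, standard error 0.22) was also lower in all pairs. The direct STAT5 targets PIM1 (0.00018), SOCS2 (-0.04) and CISH (-0.11) stood near 0, and the list median was -0.10. Other members near 0 were DUSP5 (0.09), SPRY2 (-0.09), SPRY4 (-0.04) and SPRED1 (0.03), while EGR1 was at -0.33 (standard error 0.18). Among cell death genes, PMAIP1, which encodes the BH3-only protein NOXA, was at 22.2, 17.5, 19.4 and 7.94 CPM with DMSO and at 26.2, 23.2, 25.2 and 21.2 CPM with Ro, higher within each pair with overlapping groups. It was the 1 of 23 tested members higher at an unadjusted p of 0.05 (4.35%, against 0.847% of all genes), and the survival genes BCL2 (-0.54, standard error 0.23, higher in pair 2) and BCL2L1 were the 2 lower (8.7%, against 1.27%). MYC targets as a list had a median of 0.07, which turned to -0.01 under cyclic loess scaling, with 0 of 40 tested genes at an unadjusted p of 0.05 in either direction.

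**Figure D3:**
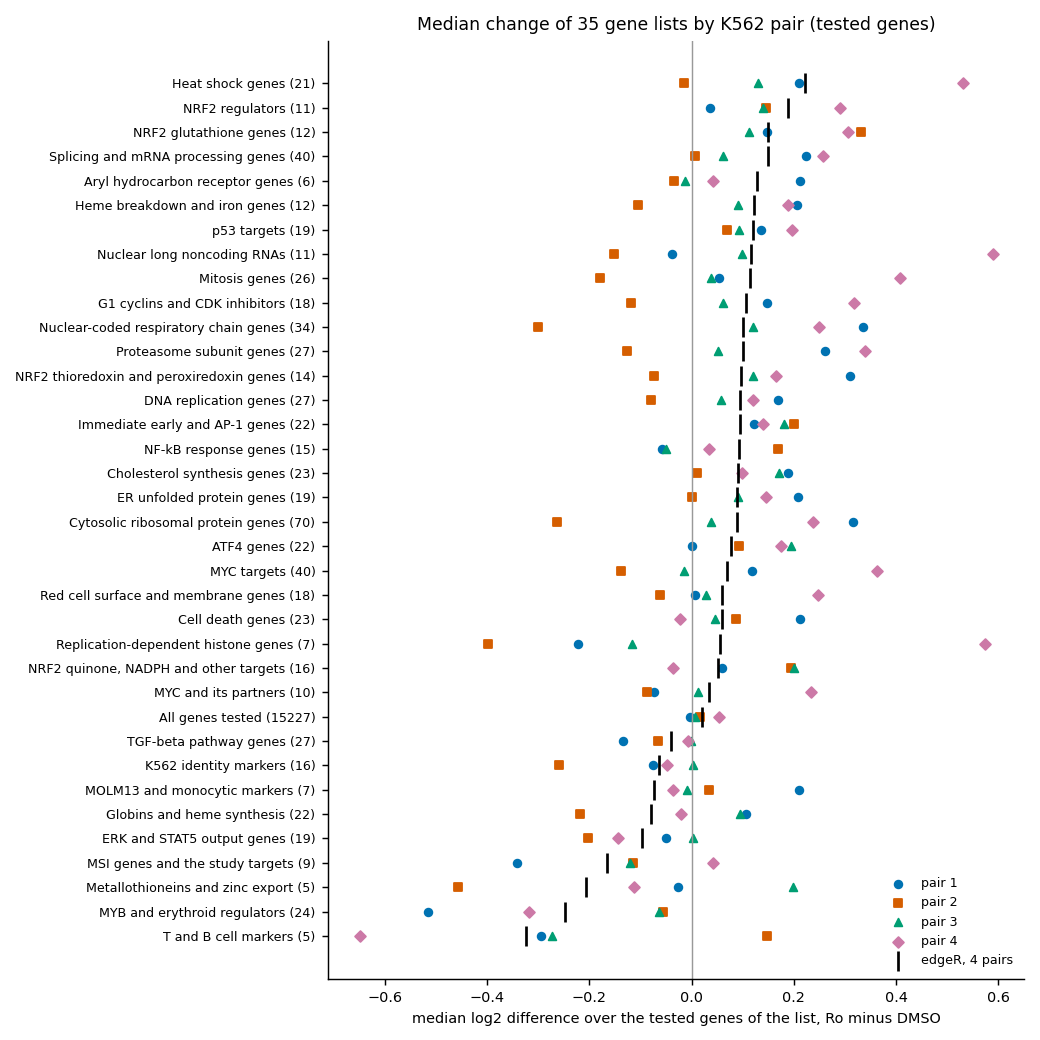
Median log2 difference (x axis) over the tested members of each of 35 gene lists and over all genes, in each pair and in the edgeR fit of 4 pairs, with the number of tested genes in brackets. Pair 2 lies left of the other pairs for the ribosomal protein, respiratory chain and proteasome lists. Pair 4 lies right of them for the heat shock, mitosis and noncoding RNA lists. The glutathione, immediate early, NRF2 regulator, p53, unfolded protein, ATF4, cholesterol and splicing lists lie right of 0 in all pairs. Some do so only just, such as ATF4 genes in pair 1 (0.00057) and unfolded protein genes in pair 2 (0.0016).

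The 4 pairs shared little of their change across genes. Over the 15227 genes, the pair differences correlated at r = 0.20 (Spearman rho 0.26) between pairs 1 and 3, 0.21 (0.22) between pairs 3 and 4, and 0.11 (0.12) between pairs 1 and 4. Pair 2 ran the other way, with r = -0.16 (-0.18) against pair 1, -0.15 (-0.19) against pair 3 and -0.23 (-0.26) against pair 4. These are descriptions across genes, which are not independent and which share the depth and composition of each library. The SD of the differences was 0.42 in pair 1, 0.72 in pair 2, 0.28 in pair 3 and 0.82 in pair 4, and 0.788% of genes in pair 3 but 19.6% in pair 4 differed by more than 1 on the log2 scale. The wide pairs are those with a shallow DMSO library. The weights that limma-voom gave the libraries followed this, at 3.1 for both libraries of pair 3, 1.5 and 1.4 in pair 1, 0.70 and 0.71 in pair 2, and 0.36 and 0.29 in pair 4.

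Both deep pairs, 1 and 3, were also fitted alone. With the pair as a block and 13667 genes, edgeR called 195 genes higher (1.43%) and 223 lower (1.63%) at an adjusted p of 0.05, from a fit with 1 residual degree of freedom per gene before moderation. A call did not need pairs 1 and 3 to agree. MT1E was called lower (edgeR adjusted p = 2.19e-25) with log2 differences of -4.2 in pair 1 and 0.86 in pair 3. The calls of this fit were then looked up in the pairs not used. Of the 195 higher genes, 52 (26.7%) were also higher in pair 2, against 50.7% of all genes in the fit, and 144 (73.8%) in pair 4, against 53.9%. Among the 223 lower genes, 34 (15.2%) were lower in pair 2, against 49.3%, and 165 (74.0%) in pair 4, against 46.1%. The share with the same direction was thus above that of all genes in pair 4 and below it in pair 2, a difference that was not tested. In both pairs at once, 42 of the higher genes (21.5%, against 22.3%) and 16 of the lower genes (7.17%, against 17.6%) had the same sign.

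The leading genes of this fit divide accordingly. OSGIN1 and JUN were higher in pairs 2 and 4 too. PRDX1, a peroxiredoxin that reduces hydrogen peroxide, had 67.3, 193, 41.1 and 32.1 CPM with DMSO and 134, 75.9, 62.5 and 48.5 CPM with Ro. It was higher in pairs 1, 3 and 4 and far lower in pair 2, whose DMSO library held the most, so that its fold change was 0.79 in pairs 1 and 3 (edgeR adjusted p = 1.12e-12) and 0.24 over all pairs (standard error 0.35). The ribosomal protein gene RPS23 (173, 375, 104 and 126 CPM with DMSO; 359, 152, 145 and 149 with Ro), the histone gene HIST1H2BK and the respiratory chain gene NDUFB6 were likewise higher in pairs 1, 3 and 4 and lower in pair 2. On the lower side, HIVEP3, a zinc finger gene, was at 70.3, 68.9, 129 and 34.7 CPM with DMSO and at 23.9, 122, 112 and 70.9 CPM with Ro, with differences of -1.55 and -0.21 in pairs 1 and 3 and 0.82 and 1.03 in pairs 2 and 4. SH3GL3 likewise turned sign in pairs 2 and 4, and KIAA1549L in pair 2 only.

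**Figure D4:**
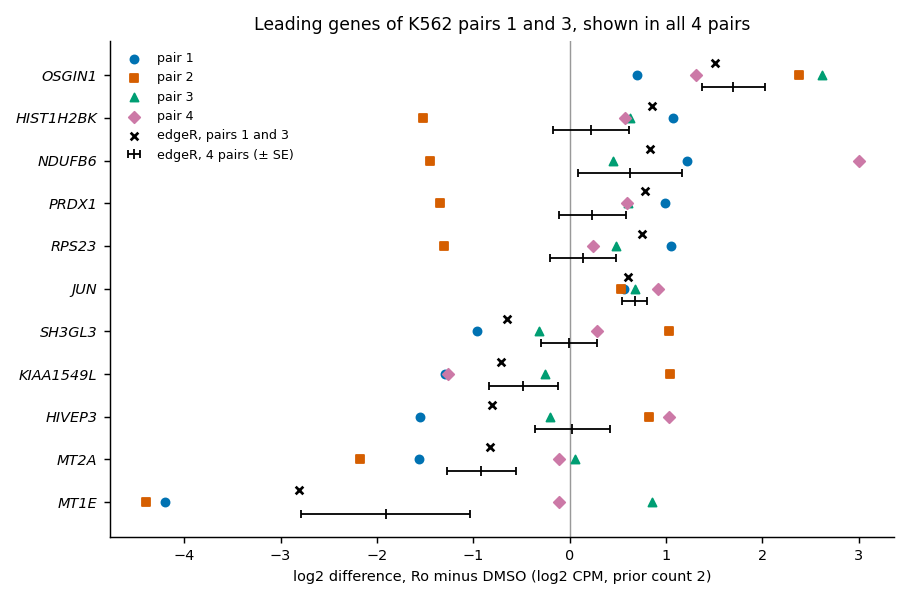
Log2 difference (x axis) in each pair for 11 of the 12 genes with the smallest p in the fit of pairs 1 and 3, 6 being taken in each direction, with that fit (crosses) and the fit of 4 pairs with its standard error. Pairs 1 and 3 chose the genes, so only the squares and diamonds of pairs 2 and 4 are new: the squares lie opposite for PRDX1, RPS23, HIST1H2BK, NDUFB6, SH3GL3, KIAA1549L and HIVEP3 and on the same side for OSGIN1, JUN, MT2A and MT1E. MT1E and MT2A were called lower in that fit although pair 3 was higher with Ro (0.86 and 0.05).

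The metallothioneins MT1E and MT2A, which bind zinc and copper, differed widely between pairs. MT1E had 36.4, 21, 0.686 and 570 CPM with DMSO and 1.87, 0.893, 1.33 and 527 CPM with Ro. Pair 4 expressed it at over 500 CPM with and without Ro, pair 3 hardly at all, and in pairs 1 and 2 the Ro library was far below its DMSO library, by log2 differences of -4.2 and -4.4. MT2A, the member at an unadjusted p of 0.05 (-0.92, standard error 0.36), followed with 87.3, 48.5, 18.5 and 1100 CPM with DMSO and 29.6, 10.6, 19.2 and 1020 CPM with Ro. Metallothionein genes are close copies of each other, and 5 of the 10 listed metallothionein and zinc genes were tested, so these counts are uncertain. SLC30A1, a zinc exporter, had log2 differences of 0.56, -0.30, 0.51 and 0.13 in pairs 1 to 4.

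Pair differences also moved with the genomic span of the gene from RefSeq start to end, known for 15194 of the genes tested. In pair 1 the median difference was 0.14 for the 2529 genes under 10 kb and -0.18 for the 821 genes over 300 kb, and in pair 3 it was 0.033 and -0.13. Pair 2 had the opposite slope, from -0.085 to 0.42. In pair 4 both ends were low, at -0.084 and -0.48, against 0.13 for genes of 10 to 100 kb. MSI2 itself spans 445731 bases. After an offset that removes this trend, GCLM was at 0.72, OSGIN1 at 1.67, MYB at -0.62, MYC at -0.52 and MSI2 at -0.40, and the fit of pairs 1 and 3 called 184 genes higher and 116 lower. The part of this trend in the other results was not tested.

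**Figure D5:**
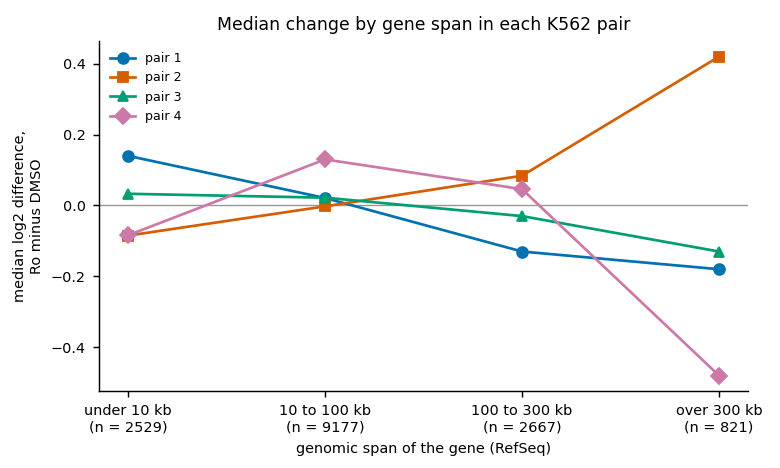
Median log2 difference (Ro minus DMSO, y axis) of genes grouped by genomic span (x axis, with the number of genes) in each K562 pair. Pairs 1 and 3 fall from left to right, pair 2 rises to 0.42 and pair 4 ends at -0.48.

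The response was set beside that of MOLM13, which had its own 4 pairs of DMSO and Ro libraries. In a single fit of the 16 libraries with a block for each pair, 0 of 16224 genes differed between the lines in their change with Ro at an adjusted p of 0.05 (edgeR, interaction term), also without the pair block or with any K562 pair left out, and 975 (6.01%) did at an unadjusted p of 0.05. GCLM (0.76 in K562 and 0.81 in MOLM13), SRXN1 (0.84 and 0.97), OSGIN1 (1.70 and 2.04), MYB (-0.57 and -0.51) and MYC (-0.51 and -0.63) had close values in both. JUN was at 0.68 (standard error 0.13) in K562 and 0.12 (standard error 0.10) in MOLM13, and the difference of 0.57 did not pass (edgeR adjusted p = 0.766). NQO1 was at 0.35 in K562 and 1.11 in MOLM13, and CDKN1A at 0.01 and 0.68, again without passing (both edgeR adjusted p = 0.766). INSIG1 (0.32 in K562 and -0.22 in MOLM13), GFI1B (-0.41 and 0.32) and NDUFB3 (0.55 and -0.26) had opposite signs, also without passing (each edgeR adjusted p = 0.766). A difference that does not pass does not show that the lines respond alike.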

How the data were processed

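Total RNA was measured with a QuantSeq 3′ FWD kit. Raw counts per gene were deposited by the authors as 1 table of 16 libraries, made with an in-house pipeline. The submitters' processing notes name Trim Galore, STAR 2.5.3a, SAMtools 1.5 and hg38. The counting tool, annotation and use of strand are not given in the sources used here, so overlapping and antisense genes cannot be told apart. The table holds no spike-in rows, and 1425 of its genes have no symbol.

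Groups and pairs came from the sample titles. Genes reaching 10 counts in 4 or more K562 libraries were tested in R 4.3.3 with edgeR 4.0.16 (TMM, quasi-likelihood F test, pair as a block, Benjamini-Hochberg adjustment). Alternatives used DESeq2 1.42.0, limma 3.58.1 and the settings in the closing section; the gene span offsets, alone and in pairs 1 and 3, were chosen after seeing the data. CPM and pair differences used TMM library sizes, the latter with a prior count of 2. The scripts were tested on simulated data. Positions, spans and promoters came from RefSeq on GRCh38.p14 and summaries from Python 3.11.15 with pandas 2.3.3 and numpy 2.4.6.

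Same-numbered DMSO and Ro libraries deviated together from their group means (r across genes 0.109 to 0.416, against a mean of -0.0922 for other numbers), although the Ro library of pair 2 correlated more with the DMSO library of pair 3 (0.186) than with its own (0.109). Deviations from a group mean cancel within the group, which itself makes the mean for other numbers negative where own-number values are positive. The check therefore cannot establish the pairing, and the pairs follow the numbers in the sample titles. No libraries matched within sampling noise (chi-square per degree of freedom at least 10.2).

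Named genes were MSI2 and targets and markers the study followed; the 12 genes in each direction with the smallest p among those with a mean of 5 CPM and 1 sign in all 4 pairs; list members at an unadjusted p of 0.05 with 1 sign in all pairs; DESeq2 or edgeR calls; and the 6 leading genes in each direction in pairs 1 and 3. Some genes that meet these rules are not reported here. Other list members were named after their values were seen. The members and lists were chosen with earlier results of these data known.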

Additional observations from a re-analysis of the deposited data

Results flagged for a closer look

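In 12 of 152 groups of 4 libraries, the highest or lowest library lay far from the other 3 by Dixon's test at the 95% level, which chance alone gives in about 1 of 20 groups. In pair 4, these were the DMSO library for MAFG (34.5 CPM), ABHD15 (17.1) and FAM129B (54.4), both libraries for MT2A (1100 CPM with DMSO and 1020 with Ro) and for MT1E (570 and 527), and the Ro library for MSI2 (114 CPM), which lay below the other Ro libraries although the DMSO library of that pair was the highest. In pair 1, the Ro library stood apart for MYC (18.7 CPM, the lowest), SMAD3 (18.1, the lowest) and RPS23 (359, the highest). In pair 2, the Ro library had the least JUN (77.2 CPM). The share of LOC100507412 and the depth of the DMSO library of pair 4 are given with the libraries; their part in these values was not tested.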

How the results depend on the processing

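At an adjusted p of 0.05, edgeR called 0 genes in either direction with the pair block, without it and with any pair left out. DESeq2 with the block called 2 higher. Pairs 1 and 3 alone gave 195 higher and 223 lower, and 184 and 116 with gene span offsets, an alternative chosen after seeing the data. At an unadjusted p of 0.05 those fits gave 1100 and 971, and 1166 and 742. limma-voom with library weights gave 575 and 876, and the single fit of 16 libraries 439 and 619. Without the pair block 52 were higher and 135 lower. A minimum of 50 counts left 103 lower, and thinning to the smallest library 125. Leaving out 1 pair gave 52 to 200 higher and 78 to 756 lower. The cause of these shifts was not tested.

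Among named genes, 850 values under the alternatives kept their direction and side of the threshold, 61 newly passed it and 24 turned sign. Without the pair block, PRDX1 was at -0.041 and HIST1H2BK at -0.042. Leaving out 1 pair moved PRDX1 from -0.054 to 0.72, HIST1H2BK from -0.12 to 0.77, RPS23 from -0.20 to 0.58, HIVEP3 from -0.32 to 0.52, CDKN1A from -0.12 to 0.12 and SH3GL3 from -0.35 to 0.31. Cyclic loess scaling gave HIVEP3 -0.050. Thinning gave HIVEP3 -0.021 and CDKN1A -0.13. Span offsets gave CDKN1A -0.0062 and SH3GL3 0.038. HIVEP3 was at -0.37 in limma-voom. In pairs 1 and 3 HIVEP3 was at -0.81 and CDKN1A at -0.0055, and with span offsets at -0.64 and -0.063. CDKN1A was at -0.010 with a minimum of 50 counts and SH3GL3 at 0.014 with no filter. The depth of the DMSO libraries of pairs 2 and 4 limits genes of low count.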

Other observations

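Several genes of cholesterol synthesis and its control were higher in every pair. INSIG1, which retains the SREBP activators in the endoplasmic reticulum, was at 246, 293, 210 and 147 CPM with DMSO and at 315, 341, 268 and 188 CPM with Ro, and MSMO1, a sterol oxidase, at 59.2, 75.3, 59.8 and 49.2 and at 68.5, 104, 79.3 and 59.7. Both were higher within each pair while the groups overlapped (log2 fold changes 0.32 and 0.34, standard errors 0.13). Of 23 tested genes of the list, 7 were higher and 0 lower in all 4 pairs (30.4%, against 7.07% of all genes), HMGCS1, CYP51A1, MVK and HSD17B7 among them. The list median of 0.09 turned to -0.006 under cyclic loess scaling.

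Splicing and mRNA processing genes had a median of 0.15, with 36 of 40 tested above 0, against 8153 of all 15227 genes. In edgeR 0 were at an unadjusted p of 0.05, and 7 were higher in all 4 pairs (17.5%, against 7.07% of all genes). That median was 0.056 under cyclic loess scaling and 0.092 without pair 4. Mitosis genes had a median of 0.12, which was 0.41 in pair 4, -0.18 in pair 2 and -0.0005 without pair 4. Cytosolic ribosomal protein genes had a median of 0.32 in pair 1 and -0.26 in pair 2, and the median of 0.09 over the 4 pairs turned to -0.0055 under cyclic loess scaling. Among p53 targets, 15 of 19 tested had a fold change above 0, as did 8153 of all 15227 genes, and PMAIP1, GADD45A and AEN were higher in all 4 pairs (15.8%, against 7.07%).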
